A study of Homo sapiens with 16 samples.

Results

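Sites of MITF, MAFG and the histone mark H3K4me3 were examined near 38 DNA replication and repair genes in the human melanoma cell line WM164. The genes were taken by name as a proposed class of MITF targets, and all 38 were found in the RefSeq gene table (assembly GRCh38.p14), which holds 20037 protein-coding genes on chromosomes 1 to 22, X and Y. The cells overexpressed either GFP, the control, or MAFG, and will be called GFP cells and MAFG cells; the vector, its promoter and the number of clones are not given in the sources used here. Each line was profiled by CUT&RUN, in which an antibody directs a nuclease to its target so that short DNA fragments around bound sites are released and sequenced, from about 250000 cells per sample. There were 3 libraries each with anti-MITF and anti-MAFG per line, 1 H3K4me3 library per line and 1 anti-rabbit IgG control per line. Peaks of the first 3 antibodies (14 lists) entered the counts, and the 2 IgG samples were not analysed here. Nothing in the labels says that replicates came from separate cultures, so p-values measure only the spread between these libraries, which may be technical.

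Replication starts when the origin recognition complex (ORC), CDC6 and CDT1 load the MCM2 to MCM7 helicase onto DNA, and continues when CDC45 and the GINS complex switch that helicase on. The sliding clamp PCNA, placed by replication factor C (RFC), then holds the polymerases, while replication protein A (RPA) covers single strands. Such genes are classically switched on at the start of S phase by E2F factors. MITF, which governs pigment cell identity, binds E-box sequences such as CACGTG and CATGTG. MAFG is a small MAF protein without an activation domain that pairs with NRF2 or BACH factors on antioxidant-type elements.

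The lists of GFP cells were several times longer than those of MAFG cells, and this bears on every comparison between the lines. With anti-MITF a GFP-cell library held 19828 to 20117 peaks, a MAFG-cell library 2116 to 2495. With anti-MAFG the ranges were 14879 to 26221 and 1836 to 2818. Whole numbers of fragments at each summit were recovered from the authors' fold enrichment and p-value, at a tolerance of 0.05 fragments, for all peaks of these 12 libraries. The authors' calling had multiplied the pileups of all 6 MAFG-cell libraries by 0.452 to 0.637 and those of GFP-cell libraries by 0.969 to 1. The weakest anti-MITF peaks held 9 to 12 fragments per library in MAFG cells against 5 in GFP cells, and their lowest −log10 p was also higher, at 5.20 to 5.31 against 4.28 to 4.29. The genome-wide background, in fragments before scaling, was 0.389 to 0.526 for anti-MITF in GFP cells and 0.447 to 0.551 for the same antibody in MAFG cells, ranges that overlap. Cell line, scaling and the p-value limit of the calling cannot be told apart. H3K4me3 peaks lay near 6 of 8 melanocyte lineage genes in both lines (MITF, SOX10, PMEL, MLANA, TYR and PAX3, but not DCT or TYRP1), near 0 of 4 keratinocyte genes, near CDH5 among 4 endothelial genes, and, in GFP cells, near LYZ among 4 immune genes.

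All 38 genes carried the active promoter mark. A peak of H3K4me3 lay within 5000 bp of a gene end for 38 of 38 in GFP cells, where 59.9% of all protein-coding genes had one, and for 38 of 38 in MAFG cells, where 55.8% did. In GFP cells the strongest such peak stood at a median percentile of 66.9 of its list by the authors' fold enrichment, from 32.2 at LIG1, the ligase that seals Okazaki fragments, to 98.9 at PCNA. In MAFG cells the median percentile was 65.8, from 9.65, again at LIG1, to 95.3 at RFC2, a clamp loader subunit. Of the 33 members with a listed start site, the mark covered it for 32 in GFP cells and for 27 in MAFG cells. The share of all genes covered in this way was not computed. Peaks at members were narrower in MAFG cells (median 2233 bp against 2775 bp), as were the peaks of the whole list (median 1781 bp against 2160 bp). With 1 library per line there was no test of these differences.

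The main question was how many of these genes have an MITF site. A site was a region called in at least 2 of the 3 libraries of a group and overlapping the 5000 bp on either side of a gene end by at least 1 bp. In GFP cells, anti-MITF sites lay near 20 of 38 members (52.6%), while 35.8% of all protein-coding genes had one. Because members are marked by H3K4me3, they were set beside the protein-coding genes of their own length and H3K4me3 classes, of which 56.3% had an anti-MITF site. The members thus stood above genes in general and near other marked genes of their size. The strongest H3K4me3 peak had a median percentile of 76.1 in GFP cells at members with an anti-MITF site and 53.4 at those without, a difference that was not tested.

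For anti-MAFG in GFP cells the number was 16 of 38 (42.1%), beside 25.5% of all protein-coding genes and 38.6% of the same classes. Without GFP-cell anti-MAFG replicate 1, the longest list, and with calls required in the 2 others, it was 9, beside 15.1% of all genes. With calls required in 3 of 3 libraries, 13 members had an anti-MITF site (beside 25.1%) and 9 an anti-MAFG site (beside 14.4%) in GFP cells. In MAFG cells, 4 members had an anti-MITF site (10.5%, beside 4.71% of all genes and 7.37% of the classes) and 1 had an anti-MAFG site (2.63%, beside 1.82% and 2.60%). Per library, anti-MITF peaks were near 20, 21 and 20 members in the control line, beside 37.7%, 37.3% and 37.0% of all genes. Under MAFG overexpression they were near 3, 5 and 4, beside 5.47%, 4.82% and 5.44%. Anti-MAFG peaks were near 17, 16 and 14 members in the control line, beside 32.6%, 29.3% and 19.5%. Under MAFG overexpression they were near 1, 0 and 2, beside 1.88%, 1.82% and 2.75%. The groups did not overlap, and neither did these shares of all genes. When every library was limited to its 1836 best peaks, which by construction makes the lists equally long, 3 members had an anti-MITF site in GFP cells and 4 in MAFG cells, beside 4.12% and 3.68% of all genes. For anti-MAFG it was 2 and 1, beside 2.26% and 1.61%.

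**Figure D1:**
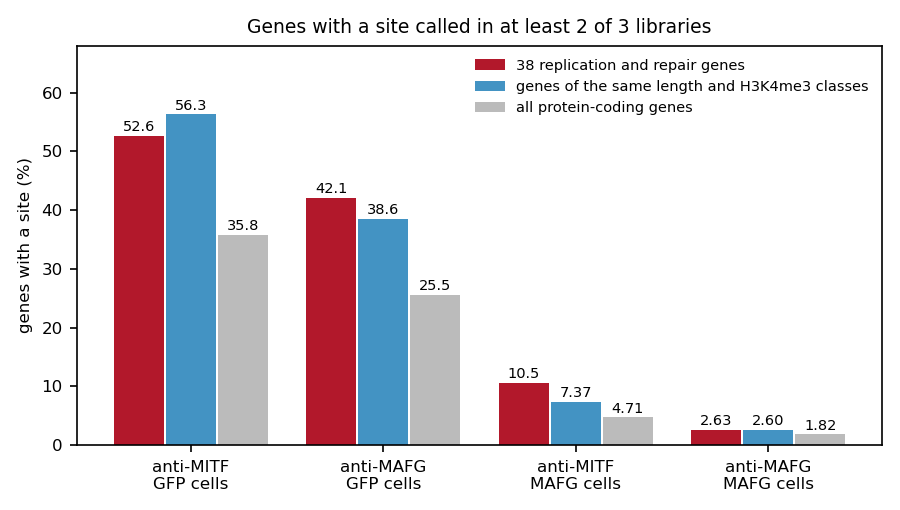
Share of genes with a site (y axis, percent of genes) for each antibody and line (x axis), for the 38 replication and repair genes, for protein-coding genes weighted to the same length and H3K4me3 classes, and for all protein-coding genes. In GFP cells the members stand at 52.6% and 42.1%, above all genes and within 4 percentage points of the genes of their classes.

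The 20 members with an anti-MITF site in GFP cells are given here by functional group. Among 11 origin licensing genes, 8 had an anti-MITF site in GFP cells: MCM2, MCM3, MCM4, MCM6, MCM7, ORC2, ORC6 and CDT1. Among 6 genes of helicase activation, only CDC45 had one, and among 6 of the clamp and its loader, PCNA, RFC3 and RFC4 did. RPA1 and RPA3 of the 3 RPA genes, FEN1, which removes the flaps of Okazaki fragments, and 5 of 7 repair genes (BRCA1, BRCA2, FANCA, BLM and MSH6) completed the 20. None of the 3 polymerase genes had a peak in any of the 12 libraries. These are counts over small groups, and no test was made between them.

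No anti-MITF or anti-MAFG peak was called in any library near 10 of the 38 genes: MCM5, GINS4, RFC1, RFC5, RPA2, POLA1, POLD1, POLE, LIG1 and FANCD2. Over all protein-coding genes 54.7% had a peak in at least 1 library, against 73.7% (28 of 38) of the members. All 10 carried H3K4me3 in both lines, so a marked promoter alone did not come with a called peak. Another 4 members, MCM10, CDC6, GINS2 and RFC2, had a peak in only 1 GFP-cell library. CDC6 was also the only member with an anti-MAFG peak in MAFG cells but none in GFP cells, in 1 library (replicate 3, fold enrichment 6.10).

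**Figure D2:**
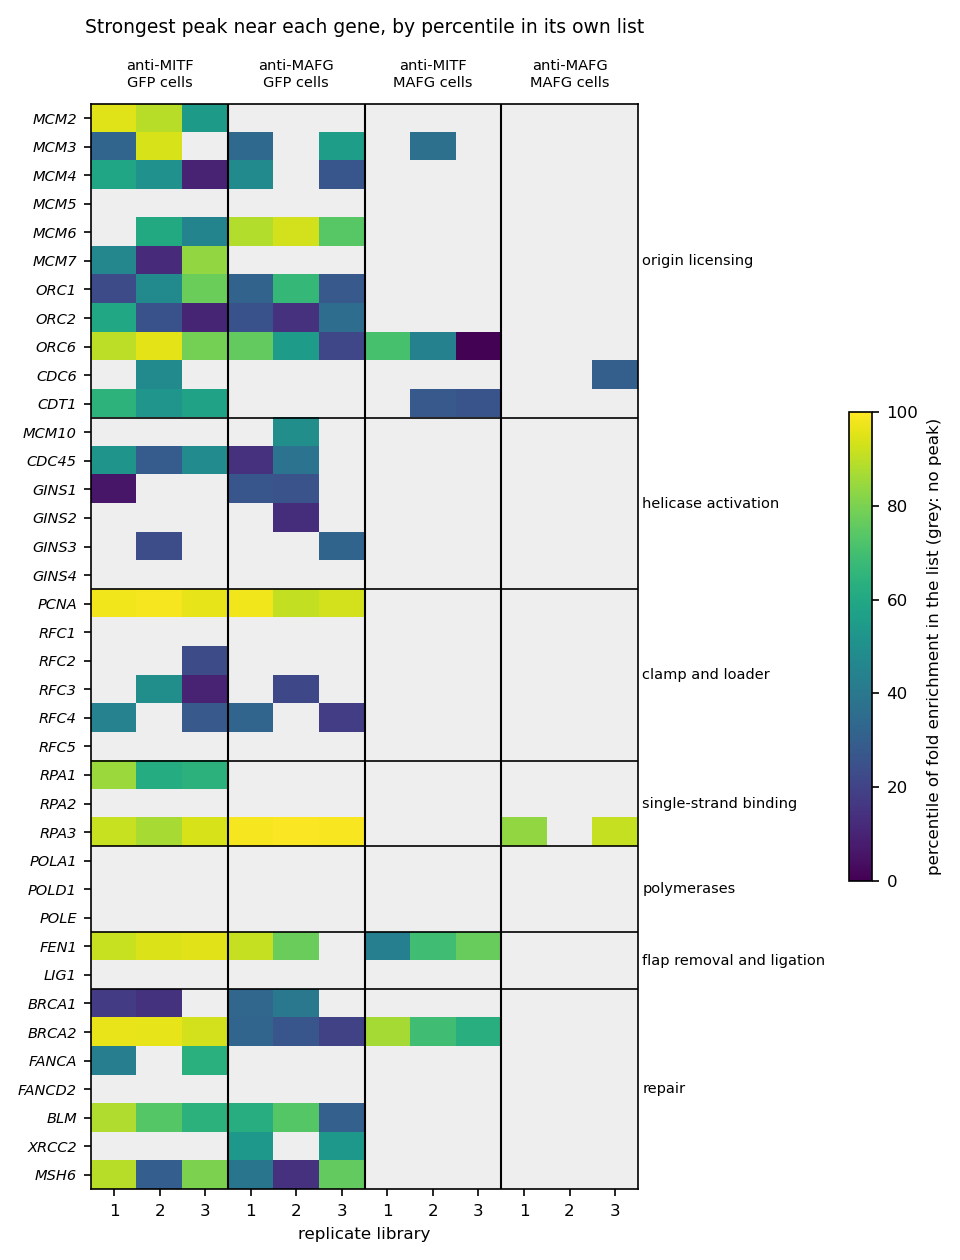
Strongest peak within 5000 bp of a gene end for each of the 38 members (rows, grouped by role) in each of the 12 libraries (columns), coloured by the percentile of its fold enrichment within its own list; grey marks no peak. PCNA and RPA3 are bright in all 6 GFP-cell libraries, the 3 polymerase genes are grey throughout, and colour in MAFG cells is limited to MCM3, ORC6, CDT1, FEN1 and BRCA2 with anti-MITF and to CDC6 and RPA3 with anti-MAFG.

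PCNA held the strongest anti-MITF site of the class. The authors' fold enrichment there was 16.3, 16.9 and 13.7 in the 3 anti-MITF libraries of GFP cells, which placed it at percentiles 98.0, 98.8 and 96.3. The region (chr20:5119246-5120541) had 26, 31 and 23 fragments over the summit. It lay inside the gene, 252 bp past the inner of 2 listed start sites. A weaker region, 509 bp before the outer start and near CDS2, was called in replicates 1 and 2 only, with fold enrichments of 3.89 and 4.23. Anti-MAFG peaks were called at the inner start with fold enrichments of 15.9, 10.4 and 9.74. In MAFG cells no peak of either antibody was called near PCNA in any of 6 libraries. The H3K4me3 peak over the inner start stood at percentile 98.9 in GFP cells and 48.3 in MAFG cells, and the one at the outer start at 91.1 and 87.8.

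BRCA2, which acts in homologous recombination, came next by mean percentile. Its anti-MITF fold enrichments were 14.6, 13.2 and 11.9 in GFP cells. Anti-MAFG peaks were present there but weaker within their lists, at percentiles 32.5, 26.8 and 19.3. FEN1 had anti-MITF values of 11.5, 12.2 and 13.1, and ORC6 values of 11.1, 13.02 and 8.52. All of these gene ends are shared, because ZAR1L lies within 5000 bp of the BRCA2 region, MYRF and TMEM258 of the FEN1 region and VPS35 of the ORC6 region, so these sites cannot be assigned to a single gene.

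RPA3, the smallest RPA subunit, was the leading anti-MAFG gene. Fold enrichment was 17.6, 16.5 and 13.5 in the anti-MAFG libraries of GFP cells, at percentiles 98.8, 99.3 and 99.0. With anti-MITF it was 11.7, 9.67 and 12.2 in GFP cells. The region (chr7:7639519-7642014 for anti-MAFG) also lies within 5000 bp of an end of UMAD1. It was the only anti-MAFG site near a member in MAFG cells, called in replicates 1 and 3 with fold enrichments of 10.4 and 12.4 and not in replicate 2, so it is lost without either of those libraries.

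Most sites lay at promoters. Of the 18 members that had an anti-MITF site in GFP cells and a listed start site, 17 had a region within 1000 bp of a start, beside 79.0% of all such protein-coding genes. For anti-MAFG it was 13 of 14, beside 72.1%. All 22 anti-MITF regions of GFP cells near members overlapped an H3K4me3 peak, as did 16 of 17 anti-MAFG regions; over all regions near gene ends the shares were 85.1% and 75.3%. The exceptions by position were the CDT1 region, which lies 8037 bp past the start of CDT1 and near APRT and GALNS, the anti-MAFG region of GINS1, which lies 4853 bp beyond the far end of that gene and near NINL, and a second anti-MAFG region of BRCA1, 1997 bp before its start and near NBR1. In 13 of the 22 anti-MITF regions another protein-coding gene had an end within 5000 bp.

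**Figure D3:**
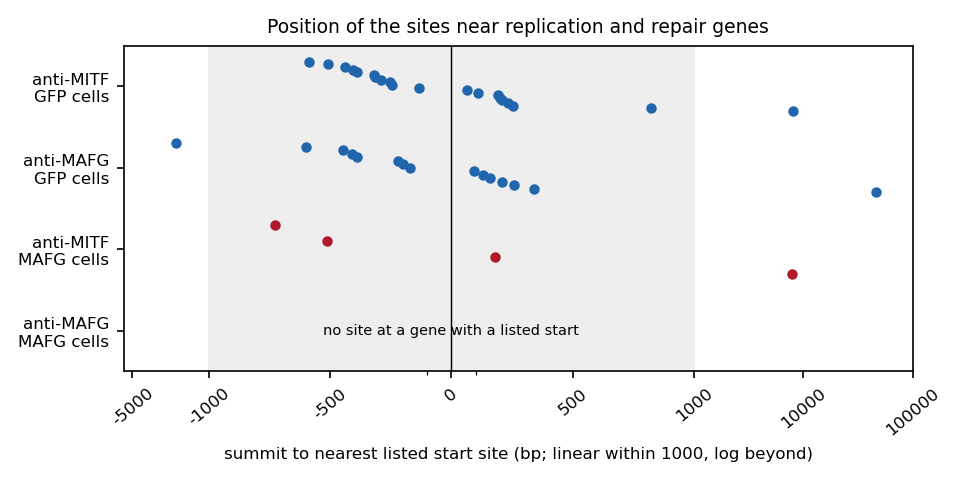
Distance in bp from the median summit of each site near a member to the nearest listed start site of that member (x axis; negative values lie before the start; linear within 1000 bp, log beyond, shaded within 1000 bp), for each antibody and line. Of 20 anti-MITF sites of GFP cells with a listed start, 19 fall within 1000 bp, and the CDT1 site lies at 8037 bp.

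Sites of both factors overlapped at 14 members in GFP cells, beside 18.4% of all protein-coding genes. Without GFP-cell anti-MAFG replicate 1 it was 8 members, beside 11.65%. All members carry H3K4me3. Among marked genes with a listed promoter, 2945 of 9881 had sites of both factors, overlapping or not, as did 12 of 33 members. The 14 were MCM3, MCM4, MCM6, ORC2, ORC6, CDC45, PCNA, RFC4, RPA3, FEN1, BRCA1, BRCA2, BLM and MSH6. In MAFG cells no member had overlapping sites, and 0.299% of all genes did. Another 6 members had an anti-MITF site only, namely MCM2, MCM7, CDT1, RFC3, RPA1 and FANCA, and 2, ORC1 and GINS1, an anti-MAFG site only. ORC1 shows the limit of such a split: a peak of anti-MITF lay near it in 3 of 3 GFP-cell libraries, but not in the same region of any 2. RFC3 had anti-MAFG peaks in 1 library and CDT1, MCM2, MCM7, RPA1 and FANCA in 0 of 3.

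Promoter letters were then set beside the sites. RefSeq promoters of 300 bases, from 250 before to 50 after a start site, were listed for 33 members, and the start nearest the outer end of the gene was used. Searched on both strands, CACGTG was found in 5 of them, MCM2, MCM7, RPA1, FEN1 and BRCA2 (15.2%, against 8.82% of the promoters of 15843 protein-coding genes and 10.4% of those marked by H3K4me3 in GFP cells). All 5 had an anti-MITF site in GFP cells, so the count was 5 of 18 members with a site and 0 of 15 without, a split that was not tested. Over all protein-coding genes with an anti-MITF site 12.7% of promoters held CACGTG, and marked promoters of genes with neither site held it in 7.60%. At MCM2, MCM7 and RPA1 no anti-MAFG peak was called in any library. The other E-box, CATGTG, was found in 1 of 33 promoters, that of GINS3, which had no site. The antioxidant-type element TGACNNNGC was found in 4 of 33, against 14.4% of all promoters. A match describes letters in a window and does not show binding there.

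The promoters below show those letters in the leading members. They are the ones, among members described in full, that held such a match in the 150 bases before a start site and had a peak over the promoter; the match is in capitals, and every sequence is RefSeq GRCh38.p14, written 5′ to 3′ on the strand of the gene.
MCM2, chr3:127598261-127598410, plus strand: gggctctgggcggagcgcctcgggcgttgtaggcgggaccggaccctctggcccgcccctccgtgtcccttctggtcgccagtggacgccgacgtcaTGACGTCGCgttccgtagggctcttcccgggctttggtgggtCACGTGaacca
RPA1, chr17:1829855-1830004, plus strand: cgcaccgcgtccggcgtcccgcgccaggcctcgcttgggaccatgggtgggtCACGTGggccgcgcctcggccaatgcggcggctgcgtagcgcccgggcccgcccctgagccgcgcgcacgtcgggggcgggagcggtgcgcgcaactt
FEN1, chr11:61792761-61792910, plus strand: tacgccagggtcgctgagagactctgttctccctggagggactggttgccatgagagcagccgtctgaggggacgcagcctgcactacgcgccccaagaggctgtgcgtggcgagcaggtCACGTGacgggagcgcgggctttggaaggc
BRCA2, chr13:32315358-32315507, plus strand: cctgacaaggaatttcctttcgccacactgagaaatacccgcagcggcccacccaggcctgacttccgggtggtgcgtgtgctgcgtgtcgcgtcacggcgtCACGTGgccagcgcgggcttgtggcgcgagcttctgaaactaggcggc
PCNA, inner start site, chr20:5119959-5120108, minus strand: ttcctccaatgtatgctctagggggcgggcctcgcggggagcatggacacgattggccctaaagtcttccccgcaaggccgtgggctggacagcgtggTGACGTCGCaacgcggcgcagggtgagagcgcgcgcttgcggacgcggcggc

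The CACGTG match began 11 bases before the start site in MCM2, 98 in RPA1, 30 in FEN1 and 48 in BRCA2. PCNA held no E-box of either form in this window. Its TGACNNNGC match, 52 bases before the inner start site, reads TGACGTCGC, as does that of MCM2 at 53 bases. The 5 promoters split by factor as follows. Those of MCM2 and RPA1 overlapped anti-MITF peaks in 3 of 3 GFP-cell libraries and anti-MAFG peaks in 0 of 3. BRCA2 and PCNA overlapped both in 3 of 3, and FEN1 anti-MITF in 3 of 3 and anti-MAFG in 1 of 3.

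MCM2, a subunit of the replicative helicase, had anti-MITF fold enrichments of 13.4, 10.2 and 6.38 in GFP cells, and RPA1, the large RPA subunit, values of 9.95, 6.72 and 7.03. MCM7 was lower and less even, at 6.29, 4.25 and 9.26. The share of promoters with letters of the E2F site (TTTGGCGC, TTTCCCGC, TTTCGCGC or TTTGCCGC, on either strand) was 54.5% of members (18 of 33) against 4.44% of all promoters. It was 9 of 18 among members with an anti-MITF site and 9 of 15 among those without, so these letters did not follow the sites. CCAAT was found in 19 of 33 member promoters and in 36.4% of all. E2F itself was not profiled.

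The comparison of the lines was then made gene by gene. For every protein-coding gene the number of libraries with a peak near it was compared between the lines by a two-sided exact permutation test, with cell labels permuted within each antibody. For a single antibody, with 3 libraries against 3, this exact permutation test cannot go below p = 0.1, and for both together not below 0.005. After Benjamini-Hochberg adjustment over 20037 genes no gene passed 0.05, member or not (0 of 38, background 0%), and the smallest adjusted p was 0.0761. At an unadjusted p under 0.05, 8 members had fewer libraries in MAFG cells and 0 had more, beside 13.8% of all genes with fewer and 0% with more. The 8 were ORC1, ORC2, PCNA, BLM, MSH6, MCM4, MCM6 and CDC45.

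ORC1, ORC2, PCNA, BLM and MSH6 had a peak in all 6 libraries of the control line and in 0 of 6 under MAFG overexpression, a pattern that 6.57% of all genes showed (exact permutation test, p = 0.005 each, the smallest it can give). BLM, the helicase that dissolves recombination intermediates, had anti-MITF fold enrichments of 10.6, 7.79 and 7.03 in GFP cells. MSH6, which acts in mismatch repair, had values of 10.9, 5.21 and 8.76. ORC2 was weaker, at 7.15, 4.89 and 4.29.

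An anti-MITF site was called in MAFG cells near 4 members, each at a region also called in GFP cells: ORC6, CDT1, FEN1 and BRCA2. In MAFG cells the fold enrichment was 7.99, 6.51 and 3.34 at ORC6, and 6.44, 7.78 and 8.36 at FEN1. At BRCA2 it was 9.59, 7.78 and 7.13, and at CDT1 it was 5.69 and 5.55 in replicates 2 and 3 with no peak in replicate 1. These values were below those of the GFP-cell lists, but fold enrichment depends on the scaling of each list. The fragments over the summit did not show that order. FEN1 had 20, 22 and 22 fragments in the control line against 23, 26 and 28 under MAFG overexpression. ORC6 had 21, 30 and 22 against 29, 26 and 28, BRCA2 28, 27 and 22 against 29, 26 and 15, and CDT1 16, 15 and 17 against 23 and 18. The ORC6 peak of MAFG-cell replicate 3, with 28 fragments, stood only at percentile 0.681 of its list by fold enrichment. Fragment numbers are not corrected for local background. Ranges overlapped at ORC6 and BRCA2, and at FEN1 the MAFG-cell values were the higher ones, as were the 2 called at CDT1. These 4 sites are compared because they were called in MAFG cells. The weakest anti-MITF peaks there held 9 to 12 fragments, so lower values could not appear. Of 22 anti-MITF sites of GFP cells near members, 17 had at least 12 fragments in a GFP-cell library. Of those 17, 4 were called in MAFG cells. For anti-MAFG, all 17 sites of GFP cells had at least 11 fragments in a GFP-cell library, and 1 was called in MAFG cells. The same counts were not made over all regions, so they are not particular to these genes. Over all protein-coding genes, 35.8% had an anti-MITF site in GFP cells and 4.71% in MAFG cells.

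**Figure D4:**
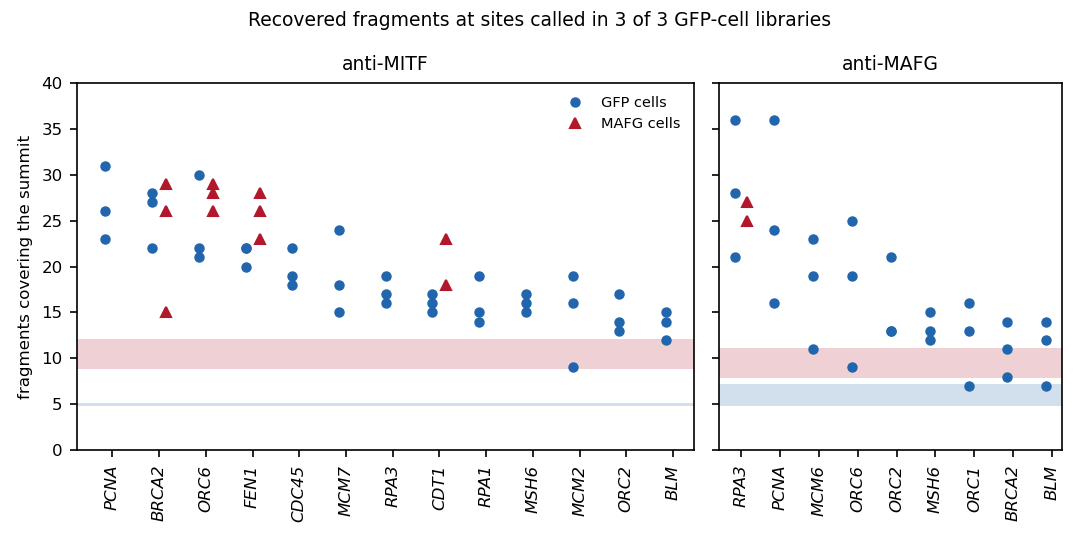
Fragments covering the summit (y axis, recovered from the authors' values, before scaling) at member sites called in 3 of 3 GFP-cell libraries, 1 point per library, for anti-MITF (left) and anti-MAFG (right); triangles are the same regions where called in MAFG cells. Shaded bands span the lowest fragment number of any called peak per library (5 in GFP cells and 9 to 12 in MAFG cells for anti-MITF); FEN1, ORC6 and BRCA2 had 15 to 29 fragments in MAFG cells and PCNA had no peak there.

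Other replication and repair genes were counted in the same way, as a wider list of 90 genes. In GFP cells 54 had an anti-MITF site (60%, beside 35.8% of all protein-coding genes and 55.3% of their length and H3K4me3 classes). An anti-MAFG site lay near 45 (50%, beside 25.5% and 39.5%). In MAFG cells 4 had an anti-MITF site (4.44%, beside 4.71% of all genes and 7.30% of the classes). An anti-MAFG site lay near 4 (4.44%, beside 1.82% and 2.63%). Those with anti-MITF included GMNN, CLSPN and DDB2, and DDB2, which detects ultraviolet damage, was the strongest of the 4, with fold enrichments of 23.7, 13.8 and 17.8. By the gene test 30 of the 90 (33.3%) had fewer libraries in MAFG cells at an unadjusted p under 0.05, beside 13.8% of all genes. Of the 90, 0 had more, beside 0% of all genes, and 0 passed adjustment.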

How the data were processed

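CUT&RUN peak lists of 14 of 16 samples were used. Per the submitters' processing notes, MACS2 2.1.1.20160309, Bowtie2 2.4.1, cutadapt 1.8.1 and the build GRCh38 or hg38 were used; the control and settings are not given in the sources used here. Peaks had been called per library. The deposited values are a fold enrichment (a linear ratio), the −log10 p-value, the −log10 q-value, a summit offset and a score, which is the −log10 q multiplied by 10 and truncated; they were used only to describe, rank or filter peaks within a list. Positions were those of the files.

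Overlapping peaks were merged per antibody over its 6 libraries, and a site was such a region with calls in 2 or more of a group's 3 libraries, within 5000 bp of either gene end. Members were compared with all 20037 protein-coding genes and with 5 length classes crossed with H3K4me3 in GFP cells, leaving out both gene lists. Per-gene tests were exact permutation tests over 400 assignments with Benjamini-Hochberg adjustment. Fragments were recovered from fold = (pileup + 1) / (background + 1) and a Poisson tail, with 1 scale per library; this formula is inferred. Both steps were tested on simulated data. The simulated fragment numbers did not reach as low as the weakest peaks of the GFP-cell libraries and of most MAFG-cell libraries, so recovery there was not simulated. Replicate libraries of a group shared 33.3% to 44.9% of base pairs, so none was deposited more than 1 time. Same-numbered libraries of the lines were not treated as paired. No pairing was found (correlations of deviations from -0.0344 to 0.00273), but this check cannot show that they were prepared apart.

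Members and lists were chosen with earlier results of these data known. Genes given in full were those with a site in MAFG cells, the 8 with the best mean percentile of anti-MITF fold enrichment in GFP cells, and those with no peak. MCM7, MSH6, ORC2 and the wider list's DDB2 were described after their values were seen. Python 3.11.15, numpy 2.4.6, scipy 1.17.1 and pandas 2.3.3 were used.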

Additional observations from a re-analysis of the deposited data

How the results depend on the processing

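Of 118 values recomputed under alternatives, 102 stayed within 1.5 times the reported one and 16 did not. The 102 include values with little room to move. Counts of 0 that stayed 0 are among them, as are H3K4me3 counts with equal lists, which left the H3K4me3 lists unchanged. With equal numbers of peaks per library, members with a site in GFP cells numbered 3 (anti-MITF) and 2 (anti-MAFG), and 1 had both, beside 4.12%, 2.26% and 0.809% of all genes; equal lists hold fewer peaks by construction. Calling in 3 of 3 libraries gave 13, 9 and 7 members in GFP cells, beside 25.1%, 14.4% and 8.86%, and 0 with anti-MAFG in MAFG cells, beside 1.08%. Anti-MAFG sites in MAFG cells numbered 0 within 1000 bp and 2 within 10000 bp, beside 0.968% and 2.645% of all genes. Around start sites only it was 0, beside 1.68% of genes with a listed start. Overlapping sites in MAFG cells numbered 1 within 10000 bp, beside 0.454% of all genes. Adjusting over genes with a peak in any library, an alternative chosen after seeing the data, put 5 members under 0.05, as it did 12% of the genes adjusted (1316 of 10970). Such genes enter that adjustment through their GFP-cell peaks, so the 5 are no support for a difference.

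Leaving out single replicates meant that calls were required in the 2 others. In GFP cells this gave 15 to 16 members with anti-MITF, beside 28.44% to 28.68% of all protein-coding genes. With anti-MAFG it gave 9 to 13, beside 15.06% to 22.71%. In MAFG cells it gave 3 to 4 and 0 to 1, beside 3.349% to 3.399% and 1.298% to 1.387%. Overlapping sites in GFP cells lay near 8 to 12 members, beside 11.65% to 16.65%. The shares of all genes thus fell as well. The values 9 and 8 are those without GFP-cell anti-MAFG replicate 1, and 0 those without MAFG-cell anti-MAFG replicate 1 or 3. No member passed adjustment in any of these 12 fits, nor with a replicate block (0 members, exact sign-flip test, smallest adjusted p = 0.454). By that sign-flip test 5 members had fewer libraries in MAFG cells at an unadjusted p under 0.05, as did 1316 of 20037 genes. No pairing was found. Classes by H3K4me3 in MAFG cells put the anti-MITF share of comparable genes in GFP cells at 58.5%, and classes by H3K4me3 fold enrichment, chosen after seeing the data, at 59.0%.

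Small counts limit the MAFG-cell results, which rest on 4 genes and 1 gene.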

Other observations

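Among 9881 promoters of protein-coding genes with an H3K4me3 peak in GFP cells, CACGTG was found in 16.1% of those with an anti-MITF site only (415 of 2579), in 10.4% with both sites (307 of 2945), in 4.30% with an anti-MAFG site only (34 of 791) and in 7.60% with neither (271 of 3566). Of marked promoters that held CACGTG, 70.3% belonged to genes with an anti-MITF site, against 54.2% of those without it. The corresponding anti-MAFG shares were 33.2% and 38.3%. TGACNNNGC varied less, from 13.7% with neither site to 17.9% with an anti-MITF site only. The 33 members listed with a promoter fell into these classes as 6, 12, 2 and 13, and their 5 CACGTG promoters as 3, 2, 0 and 0.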
